A study of Mus musculus with 16 samples.

Results

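The wide ATRX-dependent heterochromatin nanodomains (HNDs) are the regions of 2000 bp or more, end minus start, in the list of H3K9me3 regions that were present in wild-type mouse embryonic stem cells and absent in *Atrx* knock out cells. They were chosen by width alone on chromosomes 1 to 19, and the width of a region is itself a readout of the experiment, so it is given below as a description with no test. The rule took 329 of 11899 autosomal regions, which is 2.76% of these regions and 13.1% of their summed length, out of 13113 regions in the list as a whole. They were set beside the 3029 autosomal regions of 700 to under 2000 bp, called the mid-size HNDs here.

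The study precipitated H3K9me3, histone H3 and a control IgG and sequenced input DNA, with 2 libraries of each in wild-type cells and 2 in knock out cells, 16 in all. The wild-type line was wt26. The knock out cells were the lines KO1-40 and KO1-45, with 1 replicate of each by the study's methods, and the labels do not say which library came from which line. The cells were grown on gelatine with serum and LIF, and the labels name no further treatment. The outcome was deposited as 1 pooled list of positions without a height, a score or a value per replicate. No spread between replicates therefore exists for any value below, no test over samples can be made, and the depth behind each region is unknown. Spreads given as mean ± SD are over the 19 autosomes, and intervals of shares are 95% Wilson intervals that cover counting error only.

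ATRX is a chromatin remodelling protein of the SWI/SNF type that acts with the histone chaperone DAXX to place the variant H3.3 at repeated DNA, among others at telomeres and pericentromeric satellites. H3K9me3 is the trimethylated form of lysine 9 on histone H3. It is bound by HP1 proteins and is known for keeping retrotransposons and tandem repeats silent in embryonic stem cells. L1 elements are the most numerous autonomous retrotransposons of the mouse. A full-length copy begins with a promoter made of tandem monomers, followed by a first and a second open reading frame (ORF), and most copies are cut short at their 5′ end.

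The sequences that recurred among the wide HNDs are shown first, because the results on copy number, ORFs and tandem arrays refer to them. Words of 24 bases were counted over both strands, and the word present in most wide HNDs was taken first, then the word present in most of those still without one, for 5 picks in all. The first, the 5th and the 4th pick are shown and are called the first, the second and the further word here. Since the words were picked on the wide HNDs, their number there is a description. In the lines below, each word stands in capitals inside 120 bases of the widest HND that holds it, from the mm9 reference. The first word is read from the minus strand at chr10:125261740-125261859, the second from the minus strand at chr10:125260968-125261087 in the same HND, and a further one from the plus strand at chr2:162904159-162904278 in *Mybl2*.
first shared word: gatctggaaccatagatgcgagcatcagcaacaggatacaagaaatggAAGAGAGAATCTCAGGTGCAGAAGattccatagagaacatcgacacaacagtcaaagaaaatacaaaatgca
second shared word: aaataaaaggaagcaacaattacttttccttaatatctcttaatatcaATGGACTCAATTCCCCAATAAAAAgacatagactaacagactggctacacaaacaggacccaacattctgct
further shared word: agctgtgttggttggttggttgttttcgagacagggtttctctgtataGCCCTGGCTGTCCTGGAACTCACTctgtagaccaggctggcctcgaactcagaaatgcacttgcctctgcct

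The first word lay in 64 of 329 wide HNDs (19.5%, 95% interval 15.5 to 24.1%) and in 164 of 3029 mid-size HNDs (5.41%, 4.66 to 6.28%). Per Mb of DNA covered, with each HND counted once, this was 69.4 wide and 49.1 mid-size HNDs. It occurs 16274 times in mm9. The second word lay in 56 wide and 85 mid-size HNDs, at 60.8 and 25.4 HNDs per Mb, and occurs 8711 times in mm9. The further word lay in 14 wide HNDs (4.26%) and 26 mid-size HNDs (0.858%), and 11 of the 14 were in protein-coding genes. The picks between, the 2nd and the 3rd, were runs of alternating TG and of alternating TC. The TG run lay in 29 wide and 142 mid-size HNDs, at 31.5 and 42.5 HNDs per Mb. The TC run lay in 18 wide and 87 mid-size HNDs, at 19.5 and 26.0 HNDs per Mb. Per Mb, HNDs with either run were thus fewer among wide HNDs, with each HND counted once however many runs it held. As shares of HNDs the order was the other way. The TG run lay in 8.81% of wide and 4.69% of mid-size HNDs, and the TC run in 5.47% and 2.87%.

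The wide HNDs with the first word shared features on both sides of it, though not in every case. Read on the strand of that word, 42 of the 64 held an ORF of 300 codons or more, all 42 on that strand, and in 41 of them the ORF spanned the word. The longest ORF had 371 codons in 27 HNDs and 357 codons in 6 HNDs. Among the 27 ORFs of 371 codons the median identity between pairs was 98.0% of bases, with a range from 90.0 to 99.6%. From the lower to the upper quartile the ORF began 451 bp before the word and ended 665 bp after its first base. The second word lay 772 bp downstream of the first in 38 of the 48 HNDs that held both on the same strand, which is beyond the end of the ORF. Upstream, 17 of the 64 carried a tandem array with a period between 199 and 214 bases, and all 17 arrays ended before the word, at a median of 722 bp from it. In the 12 of these that also had the long ORF, the array ended before the ORF began.

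**Figure D1:**
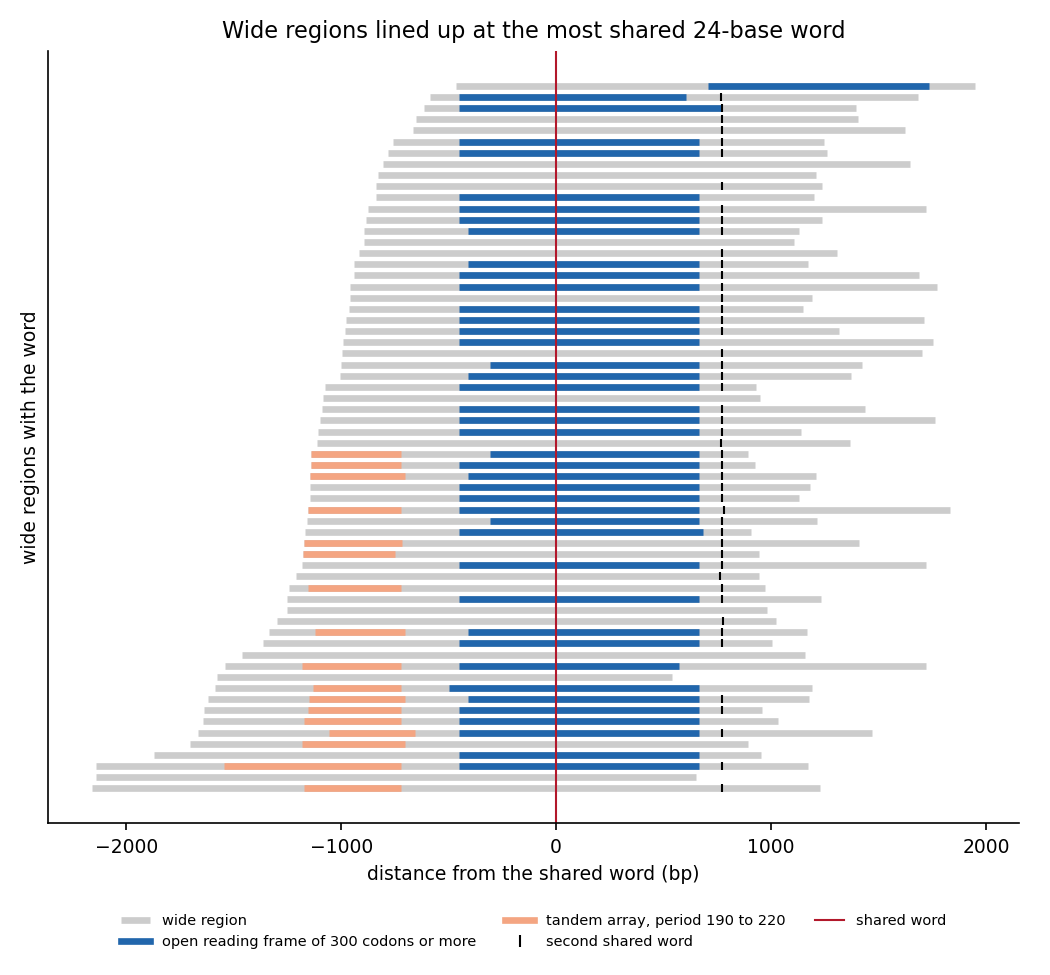
Each grey line is 1 of the 64 wide HNDs that hold the first shared word, placed by its distance in bp from the word (red line) and read on the strand of the ORF. Blue marks an ORF of 300 codons or more, orange a tandem array with a period of 190 to 220 bases, and a black tick the second shared word. The blue stretches coincide between HNDs, and the orange ones lie to their left.

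The order of array, ORF and downstream sequence is the one known from the 5′ part of a young mouse L1 element. The copies were not matched to a repeat annotation here, so no subfamily is named. The edges of these HNDs were less uniform than their contents. From edge to word they extended a median of 1109.5 bp upstream (quartiles 935.5 and 1264) and 1209.5 bp downstream (1028.5 and 1426.8). Where the long ORF was present, the HND reached a median of 691.5 bp upstream of its start and 546 bp downstream of its end. Their widths ran from just above the limit to 3386 bp, with a median of 2360 bp, so that none was among the 10 widest HNDs. Only 7 of the 64 (10.9%, 5.40 to 20.9%) overlapped a protein-coding gene. The monomer of such an array is shown for the one with the most bases, at chr12:11664027-11664852, 201 bases long and repeated in 4 whole copies that had 98.3% identity to their consensus. The first copy is given in lower case on the plus strand, whereas the word and the ORF of this HND are on the minus strand.
monomer upstream of the ORF, plus strand: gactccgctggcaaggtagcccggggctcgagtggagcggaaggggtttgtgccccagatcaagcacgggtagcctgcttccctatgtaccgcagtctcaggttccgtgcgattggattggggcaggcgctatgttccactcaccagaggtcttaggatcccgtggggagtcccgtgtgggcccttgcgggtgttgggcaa

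In the mid-size HNDs with the first word this arrangement was less complete. Their longest ORF had a median of 147.5 codons against 357 codons in the wide ones, and 11 of 164 (6.71%, 3.79 to 11.6%) held a tandem array against 19 of 64 (29.7%, 19.9 to 41.8%). An ORF of that length needs more than a kilobase, so the width that chose the HNDs bears on this comparison. Arrays with a period of 190 to 220 bases were found in 17 of all 329 wide HNDs and in 6 of all 3029 mid-size HNDs.

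Most of the wide HNDs with the first word held few 50-base words that were unique in mm9, counted by exact match. Reads were not used here and the study's mapping allowed 2 mismatches, so these shares are not those of placed reads. The share of 50-base words, the length of the reads, that occur once in mm9 had a median of 14.1% in the 64 HNDs with the word and of 96.5% in the 265 without it. Of the 64, 55 had under 50% of their words unique (85.9%, 75.4 to 92.4%), against 25 of 265 (9.43%, 6.47 to 13.6%). A median of 82.5% of the 24-base words in the 64 HNDs had 100 or more copies in mm9, against 2.45% in the others. Over all wide HNDs the median share of unique 50-base words was 92.6% against 94.5% in mid-size HNDs, and it was lower on 16 of 19 chromosomes. This difference turned around once HNDs with the first word were left out of both classes, with 96.5% and 95.9%. Leaving out HNDs by 1 word need not remove every similar sequence. The HND at chr2:57485950-57488011 lacked the word, yet its longest ORF had 371 codons and 18.8% of its 50-base words were unique. No 50-base word was unique in 7 wide HNDs (2.13%, 1.03 to 4.33%) and in 130 mid-size HNDs (4.29%, 3.63 to 5.07%). The study's methods state that only uniquely mappable reads were retained, and how these HNDs came to be listed was not tested. The part that mappability has in the called widths was not tested either.

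The wide HNDs were spread over all 19 autosomes, from 9 on chromosomes 7 and 12 to 37 on chromosome 11. Of the HNDs of 700 bp or more, the wide ones made up 5.36% on chromosome 7 (2.84 to 9.87%) and 15.9% on chromosome 19 (9.14 to 26.3%), and these intervals overlap. The median width was 2477 bp with quartiles of 2200 and 2912 bp. There were 170 HNDs under 2500 bp, 76 of 3000 bp or more, 10 of 5000 bp or more and 3 of 10000 bp or more. The 3 narrowest members were 2001, 2002 and 2006 bp wide, and the 3 widest HNDs below the limit were 1997, 1997 and 1994 bp. The number with the first shared word ranged from 0 of 18 on chromosome 9 and 1 of 37 on chromosome 11 to 9 of 20 on chromosome 5 and 4 of 9 on chromosome 12, with no test of the difference.

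**Figure D2:**
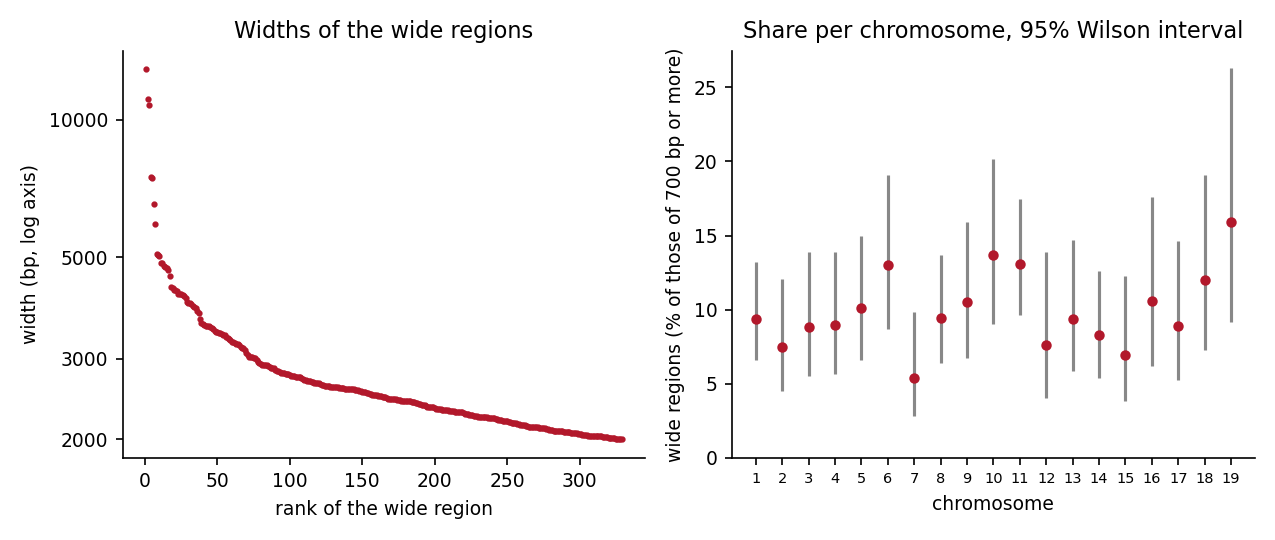
Left, the width of each of the 329 wide HNDs in bp on a log axis, ranked from the widest. Right, wide HNDs as a percentage of those of 700 bp or more on each autosome, with 95% Wilson intervals as bars. Most widths lie between 2000 and 3000 bp, and the intervals of the chromosomes overlap.

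The widest HND covered 12904 bp at chr9:34886760-34899663 in an intron of *St3gal4*, which encodes a sialyltransferase. The 4th widest, 7498 bp at chr9:34878572-34886069, lay in the same gene only 690 bp away. Only 8.04% and 2.36% of their 50-base words were unique in mm9, while 6.23% and 6.46% of their 24-base words had 100 or more copies, so that they are repeated in few rather than in many copies. Their CpG observed/expected ratios were 0.0917 and 0.0866, and both had a tandem array with a period of 5 bases. The other wide HNDs at the top of the ranking were mostly of unique sequence. That in *Etv5*, an ETS transcription factor gene, was 11121 bp wide with 96.9% unique words. That in *Mybl2*, which encodes a cell-cycle transcription factor of the MYB family, was 10794 bp wide with 89.0% unique words and overlapped 2155 bp of exons.

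The HND in *Tns3*, a tensin gene of focal adhesions, was 7448 bp wide, held only unique 50-base words to 3 digits (100%) and lay in introns. Those in *Ubqln4*, *Ankfn1*, *Dclk2* and *Xcr1* were 6560, 5931, 5099 and 5054 bp wide. *Ubqln4* encodes a ubiquilin, *Dclk2* a kinase related to doublecortin and *Xcr1* a chemokine receptor of dendritic cells. The 10th, 5030 bp wide at chr19:56586004-56591033, was 12615 bp from the nearest protein-coding gene, *Dclre1a*, and had no unique 50-base word, although 0.819% of its 24-base words had 100 or more copies. Thus 3 of the 10 widest HNDs consisted of sequence with few unique words, and none of the 10 held the first shared word.

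Of the 329 wide HNDs, 135 overlapped a protein-coding gene of GENCODE M1 (41.0%, 35.9 to 46.4%), against 964 of 3029 mid-size HNDs (31.8%, 30.2 to 33.5%). A wider region meets a gene more easily. With the central base of each HND alone the shares were 40.4% and 31.5%, nearly the same. By any overlap the wide HNDs had the higher share on 12 of 19 chromosomes, and the difference averaged 5.79 ± 14.0 percentage points (SD, n = 19), which is less than its spread. Protein-coding genes take up 39.6% of the known bases of these chromosomes, 44.2% of the bases in wide HNDs and 31.4% of those in mid-size HNDs. The wide HNDs were thus nearer to the chromosomes as a whole than the mid-size HNDs were. Among the HNDs without the first shared word the shares of the central base were 47.5% (41.6 to 53.6%) of wide and 32.0% (30.3 to 33.7%) of mid-size HNDs. The 194 wide HNDs outside protein-coding genes lay at a median of 52283 bp from the nearest one, and 18 of them overlapped another annotated gene, among them the long non-coding RNA gene *Neat1*, which was named after its values were seen.

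The overlap with exons differed more. Exons of protein-coding genes were met by 58 wide HNDs (17.6%, 13.9 to 22.1%) and 204 mid-size HNDs (6.73%, 5.90 to 7.68%). Within the central 700 bp of each HND, an equal length that leaves out more of a wide HND, the shares were 11.9% (8.79 to 15.8%) and 5.08% (4.36 to 5.92%). The share of the central 700 bp was higher among wide HNDs on 14 of 19 chromosomes, by 6.28 ± 7.14 percentage points (SD, n = 19), which is less than its spread. By any overlap it was higher on 18 of 19, by 10.4 ± 8.68 percentage points. Counted in bases, exons made up 7.00% of wide HNDs, 2.17% of mid-size HNDs and 3.09% of the known bases of the autosomes. Coding sequence was met by 48 wide HNDs (14.6%, 11.2 to 18.8%) and 168 mid-size HNDs (5.55%, 4.79 to 6.42%). Gene starts were rare in both, with 2 of 329 (0.608%) and 21 of 3029 (0.693%).

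The exons under wide HNDs were long. The longest exon met had a median length of 660.5 bp for wide and 198.5 bp for mid-size HNDs, and it had 1000 bp or more in 26 of 58 (44.8%) and 52 of 204 (25.5%). It reached the annotated 3′ end of its gene in 22 of 58 wide (37.9%) and 46 of 204 mid-size HNDs (22.5%). These lengths were computed after the share of exons had been seen, and a wide HND can meet more exons than a narrow one. The HND with most exon bases, 4242 of 5054, was that of *Xcr1* at chr9:123761559-123766612, which covered 97.2% of a last exon. It was followed by *Zfp59* with 3124 of 4133 bases, *Alg11*, a mannosyltransferase gene of protein glycosylation, with 2903 of 4852, and *Peg10* with 2848 of 3176. *Peg10* is a paternally expressed gene derived from a retrotransposon, and 2751 bases of its HND at chr6:4703798-4706973 were coding. The 5th was *Rreb1*, a zinc finger transcription factor gene, with 2795 of 3812 bases.

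Zinc finger genes are known to carry H3K9me3 over their repeated 3′ coding exons. Such genes were taken here by symbol (Zfp and a digit, Zscan, Zkscan, Zik or Zbtb at the start), so *Rreb1* was not counted. Of the 430 genes with such a symbol, wide HNDs overlapped *Zfp12*, *Zfp59*, *Zfp68*, *Zfp369*, *Zfp672* and *Zfp791*, 1 HND each (6 of 329, 1.82%, 0.838 to 3.92%). All 6 lay over an exon, while 22 mid-size HNDs overlapped such a gene (0.726%, 0.480 to 1.10%) and 8 lay over an exon (0.264%, 0.134 to 0.520%). The intervals overlap for the genes as a whole. For the exons they do not, but this rests on 6 HNDs and on the full widths. Within the central 700 bp the shares were 4 of 329 (1.22%, 0.474 to 3.08%) and 7 of 3029 (0.231%, 0.112 to 0.476%), and these intervals overlap. *Zfp12* had 2785 and *Zfp672* had 2312 exon bases in its HND, whereas *Zfp68* had 42. The HND of *Zfp369* had 209 exon bases of 2477 and also held the first shared word. The other gene families were met too rarely for a comparison. A single wide HND lay in an intron of the protocadherin gene *Pcdh15* and held the first shared word, beside 1 of 3029 mid-size HNDs. *Peg10* was the only imprinted gene of 45 listed, beside 2 mid-size HNDs. No wide HND and 2 mid-size HNDs (0.0660%) met any of 1455 chemosensory receptor genes, where 3 counts of 329 would be 0.912%.

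In base composition the wide HNDs had a lower median of G+C and a higher median of CpG than the mid-size ones. Their median G+C content was 43.9% (quartiles 41.8 and 46.2%) against 44.8% (41.3 and 47.8%), and it was lower on 12 of 19 chromosomes. The mean difference in G+C was -0.779 ± 1.45 percentage points (SD, n = 19), which is less than its spread. The median density of CpG was 10.5 per kb (7.10 and 15.1) against 9.22 per kb (5.78 and 13.8), with 8.51 per kb over the whole autosomes. CpG density was higher on 14 of 19 chromosomes, by 2.18 ± 2.62 per kb (SD, n = 19), which is less than the spread. The CpG observed/expected ratio, which allows for the content of C and G, had a median of 0.227 against 0.191 and was higher on all 19 chromosomes, by 0.0483 ± 0.0476.

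In the wide HNDs with the first shared word the median ratio was 0.308 and CpG density 13.8 per kb, while the mid-size HNDs with it had 0.194 and 7.25 per kb. Without the HNDs with the word the medians were 0.207 for wide and 0.191 for mid-size HNDs, while CpG density was 9.75 and 9.38 per kb. The 48 wide HNDs over coding sequence had a median of 15.0 CpG per kb, above the 13.8 per kb of those with the word. CpG was denser within the HND than in its own 2 kb flanks in 228 of 329 wide HNDs (69.3%, 64.1 to 74.0%) and in 1868 of 3029 mid-size HNDs (61.7%, 59.9 to 63.4%). Among wide HNDs the share was 93.8% (60 of 64) with the first word and 63.4% (168 of 265) without it. Among mid-size HNDs it was 56.7% with the word and 62.0% without it.

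**Figure D3:**
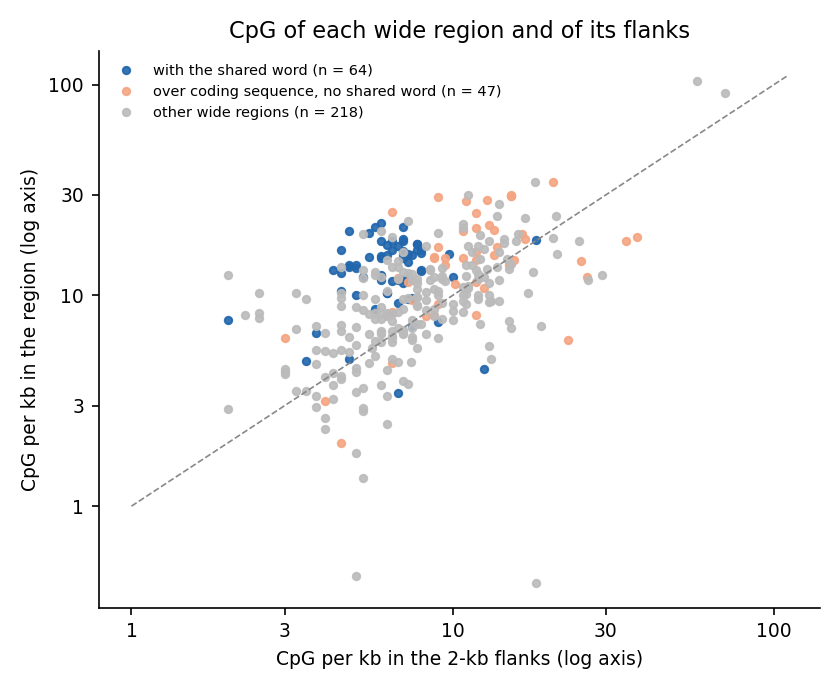
CpG per kb within each of the 329 wide HNDs against CpG per kb in the 2 kb on either side, both on log axes, with equal values on the dashed line. Blue points hold the first shared word, orange points lie over coding sequence without it, and grey points are the rest. Of the 64 blue points, 60 lie above the line, and 2 grey points near 100 per kb are neighbours on chromosome 17.

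The step in composition was sharp at the edge. In the first 100 bp inside the edge G+C content was 47.4% in wide and 46.9% in mid-size HNDs, against 41.7% and 42.1% at 400 to 500 bp outside. CpG stood at 12.6 and 10.7 per kb inside, against 9.06 and 8.55 per kb outside. From 500 to 600 bp inside the edge G+C had come down to 44.0% in wide HNDs, while CpG stayed at 12.0 per kb. The base content at the called edges may depend on read mapping and peak calling, and their part was not tested.

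**Figure D4:**
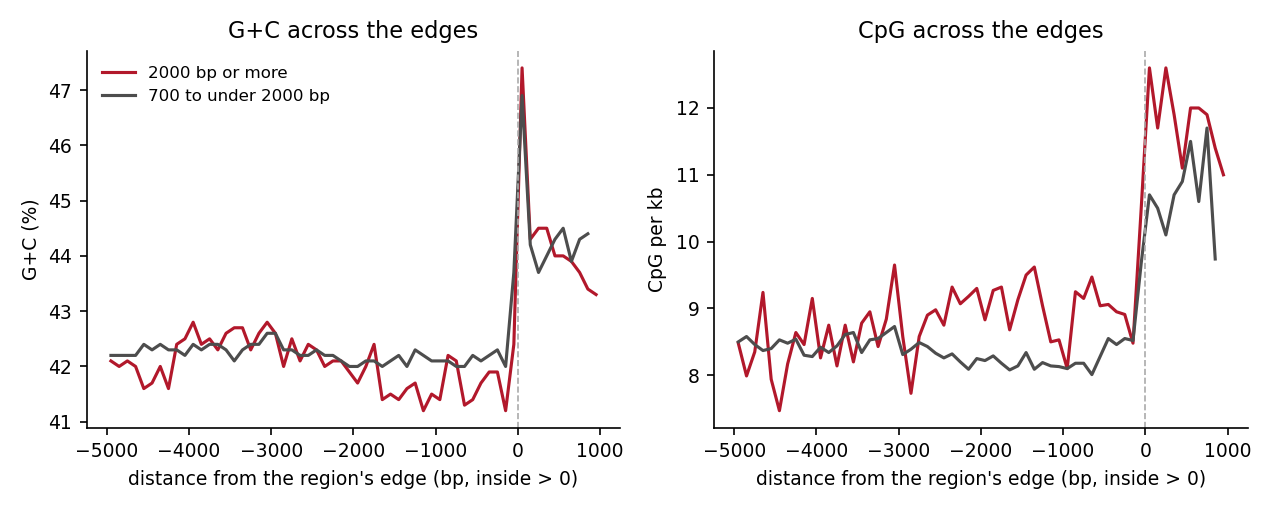
G+C content in percent (left) and CpG per kb (right) in bins of 100 bp, from 5000 bp outside to 1000 bp inside the edges of wide HNDs (red) and mid-size HNDs (grey), with both edges of each HND pooled and positive distances inside. Both measures rise at the edge, and CpG inside wide HNDs lies above that of mid-size HNDs in the first 500 bp.

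Of the 5 wide HNDs with the highest CpG observed/expected ratio, 2 were neighbours on chromosome 17, at chr17:39982985-39985561 with a ratio of 1.03 and at chr17:39979987-39982280 with 0.907. They had 91.6 and 103.7 CpG per kb and a G+C content of 59.8% and 67.8%, and were the only wide HNDs with a ratio of 0.6 or more. The first overlapped the annotated gene *AY036118*, and the nearest protein-coding gene, *Pgk2*, was 358401 bp away. The window with most CpG in the first of them, 150 bases at chr17:39985347-39985496 on the plus strand, held 27 CpG, shown in capitals.
CpG-rich stretch on chromosome 17: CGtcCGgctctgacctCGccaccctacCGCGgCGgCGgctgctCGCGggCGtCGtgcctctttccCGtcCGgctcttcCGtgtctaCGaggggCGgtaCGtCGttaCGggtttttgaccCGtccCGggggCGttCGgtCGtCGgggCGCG

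The others were in *Zfp791* (0.588), *Fat1*, which encodes an atypical cadherin (0.587), and *Zfp12* (0.517), and all 3 lay over coding exons. Their CpG density was 29.9, 29.6 and 34.5 per kb within the HND and 15.2, 15.2 and 20.5 per kb in the flanks. The 300 bases with most CpG in the HND of *Zfp791*, at chr8:87633785-87634084 on the plus strand, held 22 CpG, shown in capitals.
CpG-rich stretch in *Zfp791*: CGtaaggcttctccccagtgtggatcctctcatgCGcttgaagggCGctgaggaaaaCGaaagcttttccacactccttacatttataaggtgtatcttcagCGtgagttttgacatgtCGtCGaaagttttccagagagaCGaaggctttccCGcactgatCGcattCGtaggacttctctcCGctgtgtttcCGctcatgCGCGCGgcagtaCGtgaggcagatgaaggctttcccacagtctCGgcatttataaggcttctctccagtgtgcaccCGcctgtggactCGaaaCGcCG

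At the other end, the lowest density was 0.434 CpG per kb in a tandem array 5018 bp from *Zfp872*, whose flanks had 18.2 per kb.

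A tandem array, a stretch in which a unit of 2 to 350 bases is repeated next to itself, was present in 117 of 329 wide HNDs (35.6%, 30.6 to 40.9%) and in 584 of 3029 mid-size HNDs (19.3%, 17.9 to 20.7%). In the central 700 bp, the same length in every HND, the order turned around. The shares were 12.8% (9.58 to 16.8%) of wide and 14.8% (13.5 to 16.1%) of mid-size HNDs, and the intervals overlap. This window leaves out more of a wide HND than of a mid-size one. Of the 64 wide HNDs with the first shared word, 29.7% held an array, but 0 held one in the window. Counted in bases, arrays made up 3.92% of wide and 3.31% of mid-size HNDs, and 6.38% and 3.25% with chromosomes X and Y added. Short units of 2 to 6 bases were the best-scoring array in 56 wide HNDs, units of 7 to 60 bases in 33 and longer units in 28. The longer units were found in 8.51% of wide HNDs (5.95 to 12.0%) and 1.55% of mid-size HNDs (1.17 to 2.06%), and 17 of the 28 had a period of 190 to 220 bases. Long arrays need room, so this difference also depends on the width. HNDs that consisted mostly of an array, with 50% or more of their bases, were as few among wide (4 of 329, 1.22%) as among mid-size HNDs (57 of 3029, 1.88%), with overlapping intervals.

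**Figure D5:**
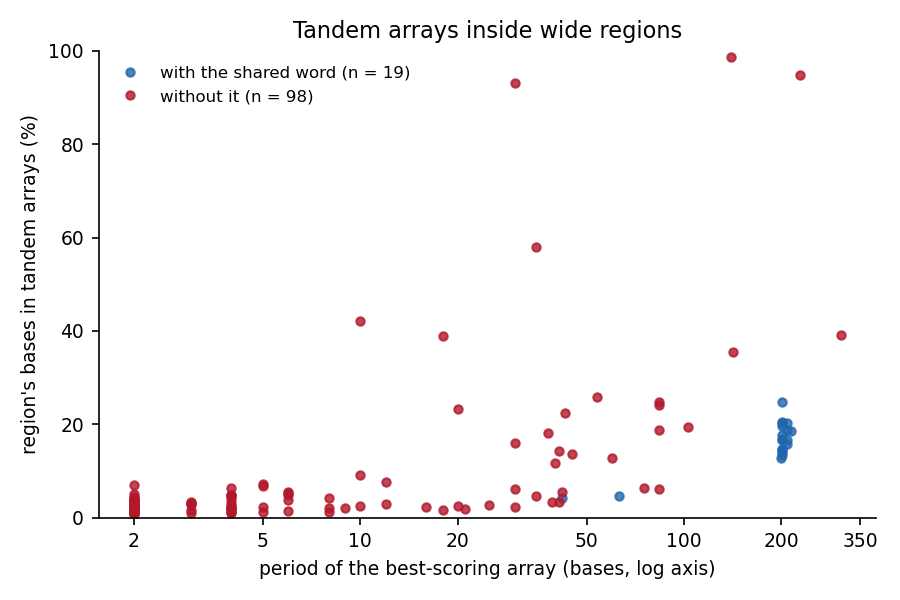
Period in bases of the best-scoring tandem array (log axis) against the percentage of the HND's bases in any array, for the 117 wide HNDs with an array. Blue points hold the first shared word and red points do not. The 17 arrays near a period of 200 bases are blue, and 4 red points exceed 50%.

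The 5 wide HNDs with most bases in arrays did not hold the first shared word. In an intron of *Cdk6*, which encodes a kinase of the cell cycle, 2616 of 2760 bp at chr5:3435816-3438575 were in arrays. Near *Zfp872* it was 2276 of 2305 bp, in *Lace1* 2052 of 2206 bp, in *Dip2a* 1967 of 3392 bp, and 9889 bp from *Rdx*, the radixin gene, 1304 of 3094 bp. The array in *Lace1* ran over 2042 bp at chr10:42121380-42123421 with 68 copies of a 30-base unit, on average 95.7% identical to the consensus. That near *Rdx* had 120 copies of a 10-base unit over 1202 bp at chr9:51843019-51844220, with 83.9% identity. The best-scoring array in *Dip2a* had 5 copies of a 35-base unit at chr10:75773296-75773470 with 96.0% identity. The consensus units are shown in capitals, read on the plus strand, and the first unit of the 228-base array at chr5:3437499-3438115 in *Cdk6* in lower case.
*Lace1* unit: AGGAGGCACACATATGTAACTGCAGTACTC
*Rdx* unit: GGGAAGGGTA
*Dip2a* unit: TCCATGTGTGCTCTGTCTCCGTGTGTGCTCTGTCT
*Cdk6* unit: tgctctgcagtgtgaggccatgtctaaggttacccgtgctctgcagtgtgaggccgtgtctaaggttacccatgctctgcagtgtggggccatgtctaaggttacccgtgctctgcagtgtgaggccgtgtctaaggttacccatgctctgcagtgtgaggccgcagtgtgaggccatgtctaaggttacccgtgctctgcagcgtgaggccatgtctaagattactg

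Units of 84 bases, the length of a coding unit of C2H2 zinc fingers, were the best-scoring arrays of 4 wide HNDs. One was in the last exon of *Zfp12* at chr5:144006427-144006626. The others, named after their values were seen, lay close to each other on chromosome 10, at chr10:81159466-81162638, chr10:81319331-81321362 and chr10:81452507-81455104, 2535, 3306 and 3359 bp from the predicted genes *Gm8112*, *Gm8137* and *Gm8158*. Of their 50-base words 0.992%, 7.56% and 0.471% were unique, and their longest ORFs had 473, 291 and 291 codons. The first copy of the unit in *Zfp12* reads as follows on the plus strand.
*Zfp12* unit: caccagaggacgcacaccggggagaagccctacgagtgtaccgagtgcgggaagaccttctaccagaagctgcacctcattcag

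Over all wide HNDs, 63 had an ORF of 300 codons or more, of which 42 held the first shared word and 13 of the other 21 lay over coding sequence. The median longest ORF was 116 codons in wide and 79.0 codons in mid-size HNDs, but 63.0 and 64.0 codons in the central 700 bp, where the difference was gone. The hexamer TTAGGG of telomeric repeats occurred 0.485 times per kb in wide and 0.468 times per kb in mid-size HNDs, counted on both strands. G-quadruplex motifs, 4 runs of at least 3 G with 1 to 7 bases between them, occurred 0.192 and 0.193 times per kb. Each of these differences was smaller than the SD of the density over the chromosomes. The wide HND near *Rdx* alone held 71 of the 447 TTAGGG and 40 of the 177 G-quadruplex motifs in wide HNDs, and without it the densities were 0.409 and 0.149 per kb, below those of mid-size HNDs. As wider regions, 60.5% and 35.0% of HNDs held a TTAGGG and 26.4% and 14.4% a G-quadruplex motif.

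The nearest other HND of any width lay at a median of 44054 bp from a wide HND and 49601 bp from a mid-size HND. A neighbour within 10 kb was present for 80 of 329 wide (24.3%, 20.0 to 29.2%) and 613 of 3029 mid-size HNDs (20.2%, 18.8 to 21.7%), and the intervals overlap. Within 1 kb it was 28 wide (8.51%, 5.95 to 12.0%) and 131 mid-size HNDs (4.32%, 3.66 to 5.11%). The neighbour was usually narrow, with a median width of 428 bp. Another wide HND within 10 kb was found for 11 wide HNDs (3.34%, 1.88 to 5.89%) and for 27 mid-size HNDs (0.891%, 0.613 to 1.29%).

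The 3 closest pairs of wide HNDs were the pair in *St3gal4*, 690 bp apart, the CpG-rich pair on chromosome 17, 704 bp apart, and a pair at chr18:30531523-30533719 and chr18:30534911-30537318, 1191 bp apart and 23742 bp from *Pik3c3*, a lipid kinase gene. Upstream of the last exon of *Xcr1*, which is on the minus strand, lay 2 more wide HNDs, at chr9:123769619-123772634 over the first exon and at chr9:123775195-123778729 beyond the gene, with gaps of 3006 and 2560 bp. In all, 131 different protein-coding genes were overlapped, and 8 of them by 2 wide HNDs each. Among these were *Ankfn1*, *Cntnap2*, *Etv5*, *Fam19a5*, *Gria1*, *St3gal4* and *Xcr1*, named after their number was seen. In *Gria1*, a glutamate receptor gene, the HNDs were 2172 and 4746 bp wide and 16154 bp apart. In *Cntnap2*, which encodes a neuronal cell adhesion protein, they were 2134 and 2016 bp wide and 105013 bp apart. The distance to the nearest HND was larger for wide HNDs with the first shared word, with a median of 70630 bp, than for those without it, with 39982 bp. Mid-size HNDs showed the same order, with medians of 71513 bp with the word and 48850 bp without it.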

How the data were processed

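H3K9me3, histone H3, IgG and input libraries of wild-type and *Atrx* knock out embryonic stem cells were made, 16 in all. Per the study's methods and the submitters' processing notes, 50-base single-end reads were mapped to mm9 with Bowtie2 allowing 2 mismatches, unique reads were kept, broad peaks were called with MACS2 against input at a cutoff of 0.1, and regions present in WT but not in KO were retained with bedtools. How replicates were joined and how much overlap counted as present are not given in the sources used here. The values deposited by the authors are start and end positions in bp, 1 list with 3 columns, and 0 columns of single libraries were left unused. Starts are counted from 1 in the text.

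Sequence measures were computed on NCBIM37 (mm9) and genes taken from GENCODE M1, with Python 3.11.15, numpy, numba and scipy. Tandem arrays of period 2 to 350 scored 1 per match and -3 per mismatch, with a lowest score of 30, and mm9 was searched for every copy of each word of 24, 36 or 50 bases. The searches were tested on simulated data. Regions named were the 10 widest, those at the limit, the 5 with most array bases, highest CpG ratio or most exon bases, the 3 closest pairs, and those in genes of the fixed families. The members and lists were chosen with earlier results of these data known. The alternatives tried were other width limits, joined regions, sex chromosomes, other comparison widths and other settings of each measure.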

Additional observations from a re-analysis of the deposited data

How the results depend on the processing

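Of the values computed under alternatives, 74 stayed within the SD over chromosomes, their Wilson interval or, for the number of HNDs, 1.5 times the number reported, 16 moved further and 11 changed the sign of the difference between wide and mid-size HNDs. A limit of 2500 bp left 159 HNDs with a median width of 2924 bp, of which 45.9% held a tandem array, 48.4% overlapped a gene and 25.2% an exon. A limit of 1800 bp gave 465 HNDs with a median width of 2241 bp, joining gave 413 and X and Y 395. With X and Y, 6.38% of bases were in tandem arrays. Tandem arrays were found in 44.1% with a mismatch score of -2, in 21.0% with a score of 50 or more and in 12.8% of the central 700 bp, where the order turned around. Counting all annotated genes gave 46.5%, and leaving out HNDs with the first shared word, an alternative added after seeing the data, 48.3%. Exons were met by the central 700 bp of 11.9%. The share with a neighbour was 18.2% after joining regions within 1 kb, 29.6% with X and Y added, 18.5% within 5 kb, 54.4% within 50 kb and 3.34% for wide neighbours only. The sign of the difference changed for unique 50-base words without the first shared word (96.5%), for TTAGGG at 1800 bp (0.463 per kb) and with X and Y (0.472 per kb), and without the HND near *Rdx*, also added after seeing the data (0.409 per kb), for G-quadruplex motifs at 2500 bp (0.244), after joining (0.199), without the shared word (0.223), in the central 700 bp (0.226) and on the forward strand (0.129), and for the longest ORF in the central 700 bp (63.0 codons). In the central 700 bp the shares with an array or an exon and the longest ORF could only fall by construction. The same holds for arrays at the higher score and for neighbours within 5 kb or of the wide class only. For the other changes the cause was not tested. No paired analysis was possible because no library has values of its own in the deposited positions, and for the same reason leaving out a replicate gave no value.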

Other observations

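On the sex chromosomes, which the rule left out, 36 regions on X and 30 on Y reached 2000 bp, beside 291 and 44 regions of 700 to under 2000 bp. The widest covered 15444 bp on X and 10802 bp on Y, and the median widths were 2402.5 and 3282 bp. The first shared word lay in 13 of the 36 on X and in 1 of the 30 on Y, and the median CpG density was 11.3 and 6.57 per kb. Protein-coding genes were overlapped by 4 and 5 of them.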
